A study of Neurospora crassa with 94 samples.

Results

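The comparison described here sets the isw deletion strain of Neurospora crassa, a filamentous fungus, against the acf iaf-2 double mutant. It rests on 6 of the 94 samples of the series, 3 RNA-seq libraries of isw and 3 labelled acf iaf-2, chosen by the genotype in their titles and all given as batch 4. The question it addresses is which expression changes of the isw strain go beyond those of a strain said to lack ACF and IAF-2. All strains were grown as mycelial cultures in constant light under standard conditions, per the labels, and carried no other stated allele or treatment. The 3 wild type (WT) libraries of the same batch were not part of the contrast and serve to place its genes. Outside the contrast, series 112 held 3 libraries labelled acf and 3 labelled as a triple mutant of acf, iaf-1 and iaf-2. The labels do not say that replicates came from separate cultures, so p-values measure library-to-library spread, part or all of which may be technical.

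ISWI is an ATP-driven chromatin remodeler that slides and spaces nucleosomes, and in animals and yeasts it works in several complexes with different accessory subunits. ACF is one such complex, in which ISWI joins a large partner protein that shapes how far it moves nucleosomes. In Neurospora, isw encodes the ISWI motor, acf its ACF partner, and iaf-1 and iaf-2 further ISWI-associated factors. Polycomb repressive complex 2 (PRC2) methylates lysine 27 of histone H3 and, in this fungus, keeps large domains of genes silent, many of them towards the chromosome ends.

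The deposited values of this batch were TPM, a length-corrected share of each library's reads. Whole reads recovered from them gave library totals between 13121085 and 15711258 for isw, between 13333284 and 18549285 for acf iaf-2 and between 11903254 and 15325395 for WT. A gene was called where its p in limma, adjusted by Benjamini-Hochberg, was under 0.05, with the model fitted on log2(TPM + 1) over 9339 genes. Differences are isw minus acf iaf-2 on that scale, with their standard errors (SE), and for low values this scale gives folds that are too small. TPM shares a fixed total among genes, so a lower value can reflect fewer transcripts of the gene or more of others. Genes without a symbol are given by locus tag.

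The deleted genes were examined first. The isw gene (crf4-1) had 2.63, 1.94 and 1.80 TPM in isw libraries, against 35.9, 35.8 and 43.5 TPM in those labelled acf iaf-2, and 36.6, 32.4 and 30.1 TPM in WT. The isw libraries kept 202 reads of this gene in all. The iaf-2 gene (NCU09388) had 16.8, 18.6 and 16.2 TPM in isw, against 0, 0.0843 and 0.102 TPM in acf iaf-2. Both therefore followed the labels.

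The acf gene (crf4-2) did not follow them. It had 44.4, 41.0 and 43.7 TPM in isw, against 21.3, 28.3 and 24.3 TPM in the libraries labelled acf iaf-2, and 16.4, 16.2 and 12.2 TPM in WT. Its reads were thus present in the double mutant and above WT there (limma, log2 difference 0.69, adjusted p = 0.00107), so the table does not show loss of acf transcripts. Whether those reads come from an undeleted stretch of the gene cannot be told from gene totals, and every direction given below is relative to libraries so labelled. The isw libraries were higher than those labelled acf iaf-2 for acf by 0.79 ± 0.14 (limma, adjusted p = 0.000228). The iaf-1 gene (NCU00412), intact in both genotypes, had 30.2, 36.9 and 35.4 TPM in isw, against 15.8, 16.9 and 18.7 TPM in acf iaf-2. That difference was 0.95 ± 0.13 (limma, adjusted p = 2.85e-05).

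Of 9339 genes tested, 3912 (41.9%) were called, with 1812 (19.4%) higher and 2100 (22.5%) lower in isw than in acf iaf-2. At a fold of at least 2, 669 (7.16%) were higher and 484 (5.18%) lower, and the 2 groups of libraries did not overlap for 665 and 481 of them. Over all genes tested, 5511 (59.0%) had libraries that did not overlap, and the median difference was -0.006. The libraries labelled acf iaf-2 were less alike than those of isw: the chi-square per degree of freedom between pairs was 19.5 to 50.8 for acf iaf-2, 10.5 to 18.7 for isw and 12.7 to 22.4 for WT, where counting noise alone gives about 1. The table's column names give the genotype for acf iaf-2 replicate 1 only, and replicates 2 and 3 were matched by the library number in the sample descriptions. With replicate 1 alone, 2337 genes were called, 1069 higher and 1268 lower. Which direction held more calls also turned on the scaling: median-ratio scaling gave 2221 higher and 1999 lower, and DESeq2 2271 and 2082.

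**Figure D1:**
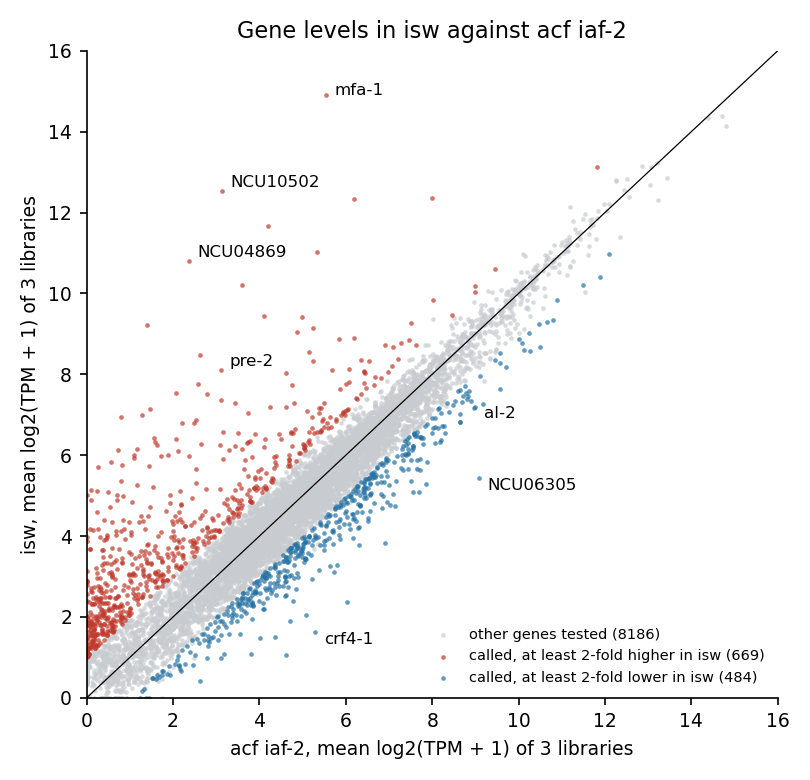
Mean log2(TPM + 1) of 3 isw libraries (y axis) against that of 3 acf iaf-2 libraries (x axis) for the 9339 genes tested, with the line of equal levels. The 669 genes called at least 2-fold higher in isw lie mostly at low acf iaf-2 levels, and the 484 called at least 2-fold lower lie along the line at middle and high levels.

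Of the 12 genes furthest above acf iaf-2 in isw, mfa-1, NCU01298 and NCU07201 had at least 9.19 TPM in every WT library, and the others at most 4.86 TPM. The 12 were picked among genes whose isw and acf iaf-2 libraries did not overlap, so that separation was set by the choice. The furthest was NCU10502, with 6354, 5607 and 5963 TPM in isw, against 27.6, 2.27 and 6.20 TPM in acf iaf-2 and 4.86, 0.574 and 0.921 TPM in WT. Its difference of isw minus acf iaf-2 was 9.41 ± 0.67 (limma, adjusted p = 1.68e-07). mfa-1, which encodes the precursor of a mating pheromone, had 29367, 35186 and 28522 TPM in isw, against 136, 23.8 and 28.1 TPM in acf iaf-2 and 31.4, 17.4 and 17.6 TPM in WT. The difference was 9.38 ± 0.51 (limma, adjusted p = 7.89e-09), and acf iaf-2 was not called against WT.

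NCU04869 and NCU04867 lie close together on chromosome IV in the reference gene order, with NCU15141 and NCU15142 between them. NCU04869 had 1770, 1760 and 1849 TPM in isw, against 11.8, 1.5 and 3.30 TPM in acf iaf-2. In WT it had 0.735, 0 and 0 TPM. NCU04867 had 620, 554 and 611 TPM in isw, against 3.75, 1.19 and 0.725 TPM in acf iaf-2, with 0.512, 0 and 0 TPM in WT. The differences were 8.44 ± 0.42 and 7.83 ± 0.26 (limma, adjusted p = 1.92e-09 and 9.31e-13), and in both genes acf iaf-2 itself was called above WT, at 4.30-fold and 2.28-fold.

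On chromosome V, NCU01298 had 3178, 3151 and 3464 TPM in isw, against 27.9, 10.3 and 18.0 TPM in acf iaf-2, and NCU07201 had 1083, 1242 and 1237 TPM against 18.0, 7.99 and 9.53 TPM. Their WT levels, 9.19 to 10.6 TPM and 9.71 to 11.1 TPM, were not called as different from acf iaf-2. The differences of isw minus acf iaf-2 were 7.47 ± 0.28 and 6.61 ± 0.23 (limma, adjusted p = 1.28e-11 and 1.90e-12).

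The double mutant was called above WT for 8 of the 12 genes furthest above, against 19.5% of all genes tested. Of the 8, 3 had the double mutant's highest folds over WT. NCU16929 had 6193, 4597 and 4746 TPM in isw, against 90.2, 65.1 and 63.3 TPM in acf iaf-2 and 3.36, 1.86 and 1.13 TPM in WT. Its neighbour NCU16930 had 360, 377 and 335 TPM in isw, against 6.49, 4.72 and 4.44 TPM in acf iaf-2 and 0.165, 0.0976 and 0.417 TPM in WT. NCU10644 had 2148, 1982 and 2108 TPM in isw, against 53.9, 26.7 and 42.7 TPM in acf iaf-2 and 1.86, 0 and 0 TPM in WT. Fitted folds over WT were 1720, 294 and 1465 in isw and 24.4, 5.05 and 28.6 in acf iaf-2 for the 3 genes in that order, and both comparisons share the WT libraries. The libraries of the 3 groups did not overlap in any of the 3 genes, with acf iaf-2 between WT and isw.

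The other 3 of these 12 had lower levels. NCU00370 had 118, 127 and 120 TPM in isw, against 0.969, 0.208 and 1.18 TPM in acf iaf-2. NCU08917 had 125, 119 and 139 TPM against 1.97, 0.306 and 2.73 TPM, and NCU02021 had 110, 161 and 159 TPM against 1.70, 2.37 and 1.28 TPM. The lowest isw library of each also lay above every WT library. The differences of isw minus acf iaf-2 were 6.15 ± 0.20, 5.72 ± 0.33 and 5.69 ± 0.24 (limma, adjusted p = 6.21e-13, 1.13e-09 and 1.16e-11).

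**Figure D2:**
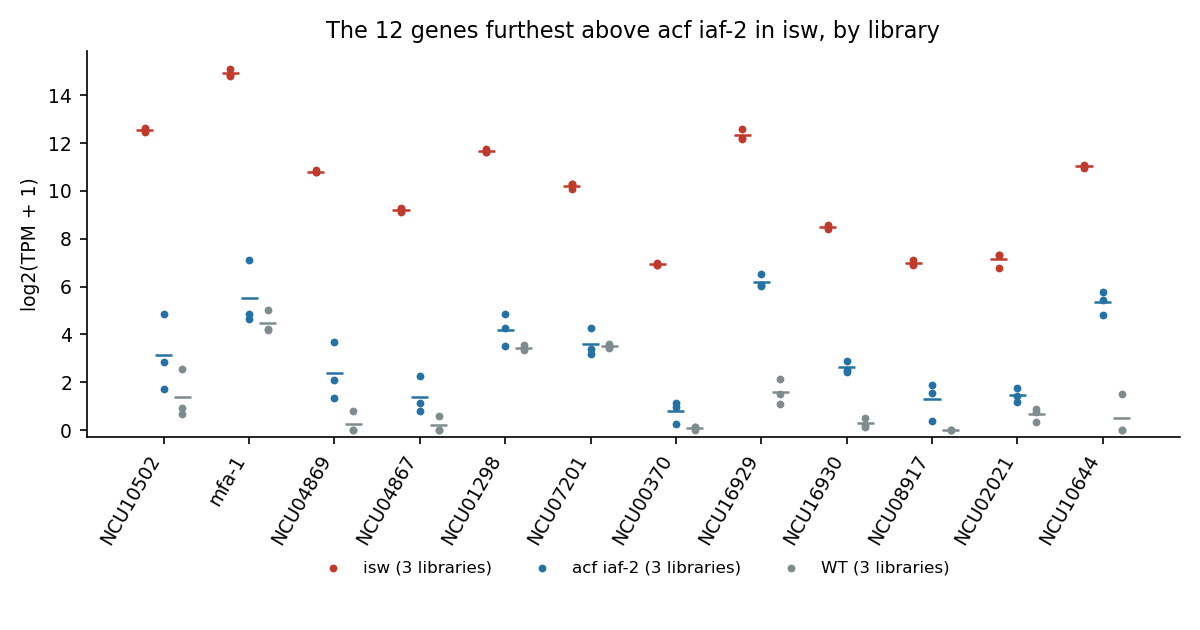
log2(TPM + 1) of the 12 genes furthest above acf iaf-2 in isw, with 1 point for each of 3 libraries of isw, acf iaf-2 and WT and a bar at the mean. For NCU10502 the isw libraries hold 5607 to 6354 TPM, against at most 27.6 TPM in acf iaf-2, and replicate 1 is the acf iaf-2 library furthest up.

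Among acf iaf-2 libraries, replicate 1 held the highest value for 9 of these 12 genes, against 2270 of all 9339 genes tested. Among WT libraries, replicate 1 held it for 8 of the 12, and the share of all genes was not counted for WT. For NCU10502, mfa-1, NCU04869 and NCU04867 the level in acf iaf-2 replicate 1 was 0.463%, 0.438%, 0.660% and 0.630% of the isw mean. In replicates 2 and 3 the same share was 0.0379% and 0.104% for NCU10502 and 0.0768% and 0.0905% for mfa-1. The part this plays in the folds was not tested. Without acf iaf-2 replicate 1, the fold of isw over acf iaf-2 was 1231 for NCU10502, 1150 for mfa-1, 547 for NCU04869 and 306 for NCU04867 (limma, adjusted p = 1.45e-08, 3.25e-12, 9.10e-13 and 1.74e-14).

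The genes higher in isw concentrated among those with little expression in WT, whose libraries the contrast did not use. Of 1161 genes with a WT mean under 1 TPM, 447 (38.5%) were called at least 2-fold higher in isw and 21 (1.81%) lower. Between 1 and 10 TPM in WT, 115 of 1913 genes (6.01%) were higher and 96 (5.02%) lower. At 10 to 100 TPM the shares were 92 of 4783 genes (1.92%) higher and 265 (5.54%) lower, and at 100 TPM or more 15 of 1482 (1.01%) higher and 102 (6.88%) lower. A gene silent in WT and acf iaf-2 enters the test only through libraries in which it is expressed, so these shares are counts and carry no test.

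**Figure D3:**
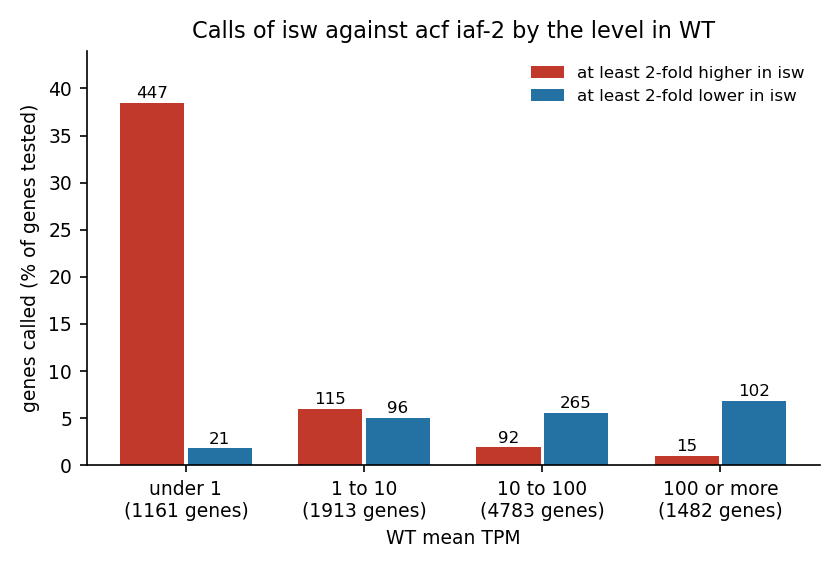
Genes called at least 2-fold higher or lower in isw than in acf iaf-2, as percent of the genes tested in each class of WT mean TPM, with the number of genes above each bar. Of genes under 1 TPM in WT, 38.5% were higher and 1.81% lower, and the lower calls are the more frequent at 10 TPM and above.

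WT lay below both mutants for 555 of the 669 genes at least 2-fold higher in isw, between them but nearer to acf iaf-2 for 98, between but nearer to isw for 9, and above both for 7. Of the 669, 628 were also called at least 2-fold above WT in isw, and 276 were called above WT in acf iaf-2. Of all genes tested, 14.3% and 19.5% were so called. For the 484 genes at least 2-fold lower in isw, the pattern was spread out. WT lay above both mutants for 148, between but nearer to acf iaf-2 for 195, between but nearer to isw for 77, and below both for 64. Of these 484, 354 were called below WT in isw, while acf iaf-2 was called above WT for 165 and below WT for 39. Over all genes tested, isw was called below WT for 19.3%, and acf iaf-2 above it for 19.5% and below it for 5.16%. These are positions of means from shared libraries and were not tested.

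Against WT, 4513 genes (48.3%) were called in isw and 2306 (24.7%) in acf iaf-2. isw was called at least 2-fold above it for 1338 genes (14.3% of those tested) and below it for 458 (4.90%). For acf iaf-2 these counts were 866 (9.27%) and 93 (0.996%), and the 2 comparisons share the WT libraries. Of the 1338 genes, 628 were also called at least 2-fold higher in isw than in acf iaf-2, and for 398 the 95% interval of the direct difference lay within 1 log2 unit of 0. Of the 458, 246 were at least 2-fold lower in isw than in acf iaf-2, and 77 had such an interval. The share of lower calls in acf iaf-2 against WT depended on the scaling, with 1824 (19.5%) higher and 482 (5.16%) lower in the TPM as deposited, against 1602 and 814 with median-ratio scaling, 1669 and 865 with edgeR and 1781 and 939 with DESeq2.

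Several genes nearly silent in WT stood at much the same level in both mutants. NCU07091 had 197, 148 and 174 TPM in isw, against 203, 171 and 203 TPM in acf iaf-2 and 0.266, 0 and 0 TPM in WT. The difference of isw minus acf iaf-2 was -0.16 ± 0.15, with a 95% interval of -0.48 to 0.17 (limma, adjusted p = 0.446). NCU12045 had 67.2, 62.7 and 65.4 TPM in isw, against 62.9, 93.0 and 53.3 TPM in acf iaf-2 and at most 0.303 TPM in WT. The ranges of the mutants overlapped in both genes.

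NCU04703, NCU16482, NCU14162 and the gene annotated as tetrahydroxynaphthalene reductase-2, an enzyme of fungal melanin synthesis, had the same pattern. Their levels were 52.6 to 65.7 TPM in isw, against 40.8 to 73.2 TPM in acf iaf-2 and at most 0.413 TPM in WT. Their differences between the mutants lay between -0.17 and 0.32, and none was called by limma on all groups. The reductase gene was called higher in isw with median-ratio scaling (limma, adjusted p = 0.0215), with only the 2 groups in the fit (limma, adjusted p = 0.0177), by edgeR (adjusted p = 0.0458) and by DESeq2 (adjusted p = 0.0206). NCU04703 was called higher with only the 2 groups in the fit (limma, adjusted p = 0.0128) and by DESeq2 (adjusted p = 0.0251). Among genes low in both mutants, NCU00995 had 14.8, 6.89 and 8.73 TPM in isw, against 10.5, 13.3 and 8.55 TPM in acf iaf-2 and 1216, 975 and 1005 TPM in WT. NCU07581 and NCU05185, near opposite ends of chromosome IV, held 1.45 to 4.62 TPM in isw, against 1.16 to 4.58 TPM in acf iaf-2 and 12.9 to 29.3 TPM in WT. A strain difference shared by both mutants would give the same pattern as a shared effect of the deletions, and these cannot be told apart here. NCU08784 had the same order, but was called lower in isw, at 3.39, 4.37 and 4.2 TPM against 6.22, 8.67 and 6.05 TPM in acf iaf-2 (limma, -0.67 ± 0.15, adjusted p = 0.00155). That call was lost with acf iaf-2 replicate 1 alone (limma, -0.54, adjusted p = 0.0557).

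Some genes can mark strain background. matA-1, a gene of the A mating type, did not separate the mutants, with 0 TPM in all 6 of their libraries, against 0.533, 0.840 and 0.786 TPM in WT. NCU09968 did separate them, with 13.9, 13.8 and 13.7 TPM in isw, against 0 reads in the 3 acf iaf-2 libraries and 28.6, 29.2 and 27.1 TPM in WT. Its neighbour NCU09969 had 2.48, 2.97 and 2.61 TPM in isw, against 0 reads in acf iaf-2 and 5.84 to 6.41 TPM in WT. Taking 3 reads over the summed acf iaf-2 libraries as a floor, which covers counting error only, these were at least 660-fold and at least 87.7-fold higher in isw. Both genes were also at 0 in the triple mutant of the batch, and a strain difference and an effect of the deletions cannot be told apart at them.

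The mating and sexual development list gave 4 of 9 tested members higher in isw and none lower, where 19.4% and 22.5% of all genes were called in these directions. Its median over the 9 was 0.19 against -0.006 for all genes, and 5 of them were not called. The median was 0.01 over all 12 members in the table with no filter on low values, 0.33 with a pseudocount of 0.1 TPM and 0.07 with acf iaf-2 replicate 1 alone. Beside mfa-1, pre-2, a pheromone receptor gene, had 248, 298 and 278 TPM in isw, against 8.14, 6.14 and 8.85 TPM in acf iaf-2 and 2.20, 1.56 and 1.39 TPM in WT. Its libraries were clear of each other in all 3 groups, and isw exceeded acf iaf-2 by 4.99 ± 0.19 (limma, adjusted p = 2.24e-12). Of these 3 groups only WT had reads of matA-1, and the labels do not give mating type. For mfa-1 and pre-2 against WT, a strain difference and an effect of the deletions cannot be told apart. per-1, a polyketide synthase gene needed for perithecial pigment, had 14.3, 17.9 and 16.9 TPM in isw, against 0.900, 0.638 and 0.716 TPM in acf iaf-2 (limma, 3.31 ± 0.16, adjusted p = 8.20e-11).

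pp-1, a transcription factor of the mating pathway, had 98.8, 112 and 112 TPM in isw, against 87.5, 80.5 and 87.9 TPM in acf iaf-2 (limma, 0.33 ± 0.10, adjusted p = 0.0182). The call was lost without acf iaf-2 replicate 2 (adjusted p = 0.0679), without isw replicate 2 (adjusted p = 0.0662) or without isw replicate 3 (adjusted p = 0.0671). pre-1, another pheromone receptor gene, had 2.48 to 4.79 TPM in isw, against 3.37 to 3.56 TPM in acf iaf-2, and ccg-4, the other pheromone precursor gene, stayed at most at 0.345 TPM in both. Asm-1, a regulator of sexual development, had 55.3 to 57.0 TPM in isw, against 63.5 to 82.6 TPM in acf iaf-2, without a call. Summed over per-1, Asm-1 and fmf-1, markers of protoperithecia and perithecia, the libraries held 69.6 to 74.9 TPM in isw, against 64.4 to 83.3 TPM in acf iaf-2 and 98.2 to 122 TPM in WT, with fmf-1 at 0 throughout.

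Genes higher in isw often lay side by side. Of 667 such genes with a place on a chromosome, 287 (43.0%) had a direct neighbour also called at least 2-fold higher. There were 33 runs of at least 3 adjacent genes, holding 147 genes. Of 481 genes at least 2-fold lower with a place on a chromosome, 116 (24.1%) had a direct neighbour also called at least 2-fold lower. These formed 7 runs that held 24 genes. Of all genes tested, 7.16% were called at least 2-fold higher and 5.18% lower. With a neighbour on each side, some genes have one called alike by placement alone. That share was not computed, so neither percentage is a baseline for the other. Chromosome IV had the highest share of genes higher in isw, 154 of 1429 (10.8%), against 5.15% to 8.28% on the other chromosomes.

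The longest run spanned 17 genes on chromosome IV, NCU07636 to NCU07653, which are genes number 100 to 116 from that chromosome's start in the reference gene order. The libraries of the 2 groups did not overlap for any of the 17, and fitted folds of isw over acf iaf-2 lay between 2.06 and 29.6. In WT, 13 of the 17 had 0 TPM in all 3 libraries. NCU07645 had 29.7, 35.4 and 36.8 TPM in isw, against 0.0866, 0.362 and 0.0978 TPM in acf iaf-2 (limma, 4.89 ± 0.15, adjusted p = 2.48e-13). NCU07638 had 14.6, 18.0 and 18.4 TPM in isw, against 0.177, 0.0618 and 0.1 TPM in acf iaf-2, and NCU07648 had 4.84 to 4.99 TPM against at most 0.0381 TPM. For these 3 genes the isw libraries held 320 to 980 reads in sum, against 1 to 7 reads over the 3 acf iaf-2 libraries.

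In the same run, some genes had clear levels in acf iaf-2 too. NCU16728 had 39.1, 25.4 and 38.6 TPM in isw, against 5.50, 2.40 and 3.11 TPM in acf iaf-2, and NCU07653 had 13.3, 20.0 and 13.0 TPM against 3.35, 2.08 and 1.26 TPM. Both were at 0 in WT, and acf iaf-2 was called above WT for 6 of the 17 genes. Toward the end of the run the order differed. NCU07649 had 97.8, 132 and 117 TPM in isw, against 50.4, 57.3 and 54.7 TPM in acf iaf-2 and 131, 103 and 100 TPM in WT. For it, NCU07651 and NCU07652, acf iaf-2 was called below WT.

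**Figure D4:**
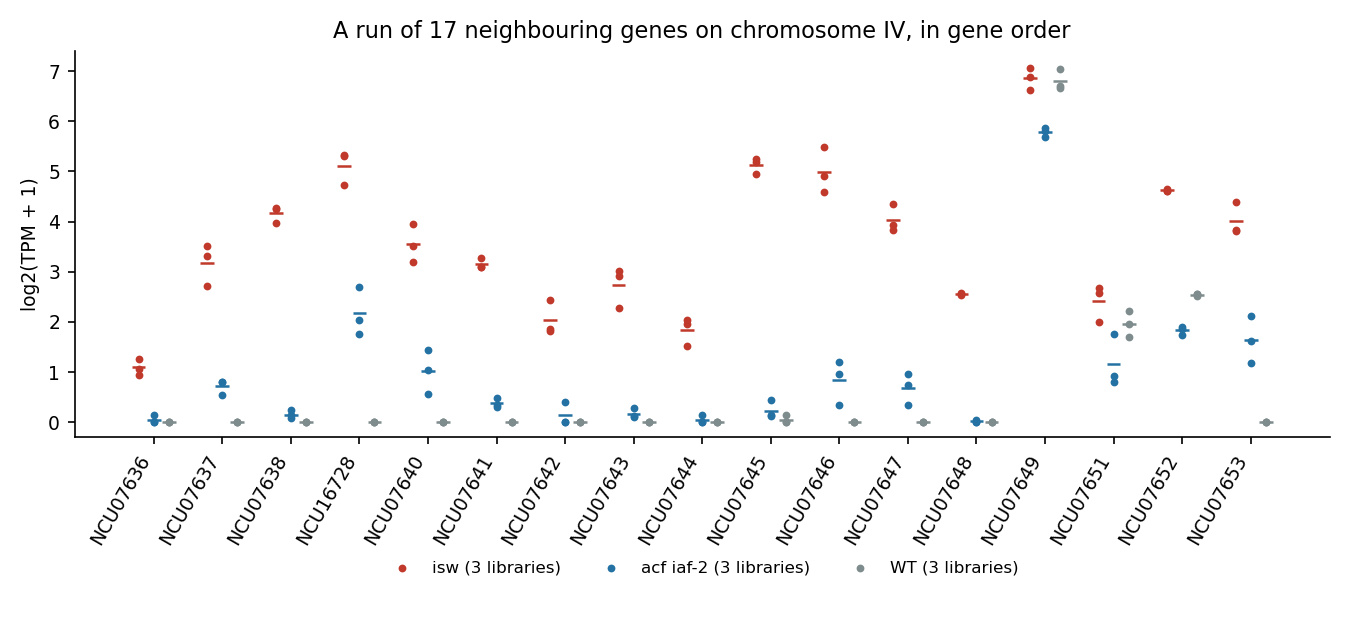
log2(TPM + 1) of 17 adjacent genes of chromosome IV in the reference gene order, with 1 point for each of 3 libraries of isw, acf iaf-2 and WT and a bar at the mean. The isw libraries lie above the acf iaf-2 libraries in all 17 genes, and WT is at 0 in 13 of them.

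Other runs lay on the same side of chromosome IV. One of 7 genes, ada-6 to NCU15143 (genes number 138 to 144), holds NCU04867 and NCU04869, with fitted folds of 2.63 to 347. ada-6, a zinc cluster transcription factor gene that affects asexual and sexual development, had 30.4, 26.1 and 29.6 TPM in isw, against 8.59, 15.2 and 8.11 TPM in acf iaf-2 and 10.1 to 13.3 TPM in WT. The genes NCU15141, NCU15142 and NCU15143 of the same run had no read in acf iaf-2, against 25, 25 and 53 reads over the isw libraries, which makes them at least 9.17-fold, 9.17-fold and 19.4-fold higher with the floor of 3 reads over the group. A run of 6, NCU04875 to NCU04879 (genes number 153 to 158), holds NCU10644 and NCU10502.

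A run of 7 genes on chromosome II, NCU05467 to NCU16540, is genes number 388 to 394 from that chromosome's start. NCU05469 had 57.1, 54.0 and 44.3 TPM in isw, against 0.261, 0.182 and 0.147 TPM in acf iaf-2 (limma, 5.46 ± 0.18, adjusted p = 5.22e-13). NCU05472 had 119, 124 and 103 TPM in isw, against 5.18, 5.11 and 4.14 TPM in acf iaf-2, with 0.151, 0 and 0 TPM in WT. All 7 were called above WT in isw, and 4 of them were called above WT in acf iaf-2.

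Chromosome ends held fewer of the higher calls and more of the lower ones. Among the 50 genes at each end, 34 of 617 (5.51%) were at least 2-fold higher in isw and 60 (9.72%) lower, against 633 (7.29%) and 421 (4.85%) of 8689 other genes. With 20 genes at each end the shares were 3.27% higher and 13.1% lower, and with 100 genes 8.80% higher and 9.29% lower, so the share of higher calls was below that of all genes at 50 genes and above it at 100. Gene number is not distance in bases, and no test was made.

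The libraries of series 112, which the contrast did not use, gave a further view of the same genes, since they compare the triple mutant with acf. Of 8747 genes tested there with edgeR's quasi-likelihood test, 2183 (25.0%) were called higher and 2031 (23.2%) lower in the triple mutant. Of the 669 genes at least 2-fold higher in isw than in acf iaf-2, 541 could be tested, and 467 (86.3%) were called higher and 16 lower, with a median log2 difference of 2.66. Over all 8719 genes tested in both, 25.0% were called higher and the median was 0.01. Genes low in all groups of series 112 did not pass its filter. A gene silent in acf enters that test only through libraries in which it is expressed. The filter can therefore raise the share called higher, and these shares are counts that carry no test. Of the 484 genes at least 2-fold lower in isw, 475 could be tested. Of these, 229 (48.2%) were called lower and 51 (10.7%) higher, with a median of -0.49, where 23.3% of all genes were called lower. Across the 8719 genes the 2 differences had a Pearson correlation of 0.64 and a Spearman correlation of 0.34, given as a description, since genes are not independent replicates. By their labels the 2 groups of series 112 differ at iaf-1 and iaf-2, so this is not the same contrast. Reads of the acf gene (crf4-2) went against the labels here too, at 63.2 ± 7.49 CPM in the libraries labelled triple mutant and 74.3 ± 8.59 CPM in those labelled acf, against 30.1 ± 6.09 CPM in WT (SD, n = 3 each).

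The genes lowest in isw, also picked among genes whose isw and acf iaf-2 libraries did not overlap, were mostly expressed in WT. Beside the isw gene itself, NCU06305 had 44.8, 38.9 and 43.8 TPM in isw, against 668, 399 and 593 TPM in acf iaf-2 and 877, 1151 and 1002 TPM in WT. The difference was -3.64 ± 0.19 (limma, adjusted p = 1.88e-10), and acf iaf-2 was itself called below WT. NCU05639 had 5.03, 3.54 and 4.14 TPM in isw, against 70.7, 53.2 and 69.3 TPM in acf iaf-2 and 35.1, 55.8 and 52.5 TPM in WT, a difference of -3.64 ± 0.22 (limma, adjusted p = 9.88e-10). In the triple mutant of series 112 both were lower than in acf (edgeR, log2 difference -1.57 and -2.63), and each was called.

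The neighbours NCU09209 and NCU09210 on chromosome I fell together. NCU09209 had 0.745, 0.982 and 1.61 TPM in isw, against 18.2, 24.8 and 27.9 TPM in acf iaf-2 and 76.0, 40.6 and 41.0 TPM in WT. NCU09210 had 6.42, 8.47 and 8.15 TPM in isw, against 37.0, 59.5 and 63.0 TPM in acf iaf-2 and 84.7 to 123 TPM in WT. The differences were -3.55 ± 0.30 and -2.61 ± 0.26 (limma, adjusted p = 1.48e-07 and 8.63e-07), and in each gene the 3 groups were clear of one another. Neither was called in series 112.

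NCU09698 had 3.22, 2.37 and 3.85 TPM in isw, against 33.1, 46.5 and 22.4 TPM in acf iaf-2 and 37.4 to 38.5 TPM in WT (limma, -3.03 ± 0.21, adjusted p = 6.69e-09). NCU17055, gene number 9 from an end of chromosome VI, had 1.33 to 2.48 TPM in isw, against 14.1 to 24.0 TPM in acf iaf-2 and 29.9 to 33.9 TPM in WT. NCU10040, gene number 5 from an end of chromosome IV, had 2.18 to 3.41 TPM in isw, against 19.6 to 33.1 TPM in acf iaf-2 and 27.9 to 46.3 TPM in WT. The call of NCU10040 (limma, -2.80 ± 0.67, adjusted p = 0.00452) was lost when acf iaf-2 replicate 1 alone stood for its group (-2.74, adjusted p = 0.0782). NCU10865 had 30.8 to 36.2 TPM in isw, against 236, 103 and 356 TPM in acf iaf-2 and 277 to 411 TPM in WT. NCU15198 rests on few reads, 3 in isw against 28 in acf iaf-2, and had 0 to 3.01 TPM in isw, against 8.55 to 17.7 TPM in acf iaf-2 and 1.51 to 5.72 TPM in WT.

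For 4 genes the 2 mutants lay on opposite sides of WT, each at least 2-fold and called, with isw below and acf iaf-2 above. No gene met the same rule the other way round. NCU07607 had 17.8, 8.07 and 15.6 TPM in isw, against 144, 81.4 and 146 TPM in acf iaf-2 and 33.1, 40.2 and 31.7 TPM in WT. NCU09170 had 43.1, 32.2 and 39.3 TPM in isw, against 311, 164 and 237 TPM in acf iaf-2 and 70.0, 123 and 127 TPM in WT. NCU09049 had 12.1 to 13.7 TPM in isw, against 38.9 to 134 TPM in acf iaf-2 and 29.0 to 42.9 TPM in WT, and NCU14086 had 1.25 to 2.20 TPM against 11.8 to 21.0 TPM and 5.44 to 7.79 TPM in WT. The isw libraries lay below WT in all 4, and acf iaf-2 above WT in all but NCU09049, where 1 acf iaf-2 library fell within the WT range. The differences of isw minus acf iaf-2 were -3.09 ± 0.30, -2.57 ± 0.27, -2.53 ± 0.33 and -2.53 ± 0.22 (limma, adjusted p = 7.73e-07, 2.59e-06, 2.61e-05 and 9.33e-08).

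NCU09170 belongs to the longest run of genes lower in isw, NCU09167 to NCU09171 on chromosome III, 5 genes with fitted folds of 2.20 to 5.93. NCU09169, beside it, had 33.9, 27.5 and 31.9 TPM in isw, against 149, 92.0 and 112 TPM in acf iaf-2 and 80.3 to 130 TPM in WT. NCU09168 had 0.622 to 1.76 TPM in isw, against 5.69 to 12.9 TPM in acf iaf-2, and its call (limma, -2.12 ± 0.64, adjusted p = 0.0163) was lost without acf iaf-2 replicate 2 (adjusted p = 0.0648), without isw replicate 2 (adjusted p = 0.0558) or without isw replicate 3 (adjusted p = 0.0502). NCU09167 had 0.208 to 0.423 TPM in isw against 3.69 to 7.66 TPM, and NCU09171 had 0.239 to 0.465 TPM against 1.47 to 2.89 TPM.

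A run of 4 on chromosome IV, NCU04928 to NCU04931, had lower levels throughout in isw. NCU04930 had 154, 154 and 173 TPM in isw, against 421, 297 and 406 TPM in acf iaf-2 and 345 to 395 TPM in WT, and NCU04931 had 40.2, 42.2 and 50.0 TPM against 130, 85.6 and 163 TPM and 206 to 264 TPM in WT. All 4 genes were called below WT in isw and lower in the triple mutant of series 112. A run of 3 on chromosome VI, NCU05070 to NCU05068, held NCU05069 with 8.06, 6.24 and 12.2 TPM in isw, against 74.2, 27.8 and 55.7 TPM in acf iaf-2 and 14.1 to 29.2 TPM in WT. NCU05070 and NCU05068 were called below WT in both mutants and lowest in isw, at 4.74 to 5.95 TPM and 0.639 to 0.852 TPM, against 16.5 to 17.1 TPM and 2.88 to 4.55 TPM in acf iaf-2.

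The light response and clock list had 8 of 17 members lower in isw and 2 higher, where 22.5% of all genes were lower and 19.4% higher. Its median was -0.22, against -0.006 for all genes. al-2, which encodes phytoene synthase of the carotenoid pathway, had 166, 145 and 169 TPM in isw, against 520, 447 and 473 TPM in acf iaf-2 and 346, 384 and 376 TPM in WT. The isw libraries lay below and the acf iaf-2 libraries above WT, and isw minus acf iaf-2 was -1.58 ± 0.12 (limma, adjusted p = 2.76e-08). al-1, the phytoene dehydrogenase gene, had 16.3, 16.5 and 14.4 TPM in isw, against 29.9, 38.6 and 26.8 TPM in acf iaf-2 and 53.2 to 58.5 TPM in WT (limma, -0.96 ± 0.15, adjusted p = 7.94e-05).

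Some other light-regulated genes were also lower in isw. cry, a cryptochrome gene, had 24.5, 26.9 and 24.2 TPM in isw, against 60.0, 52.2 and 59.6 TPM in acf iaf-2 and 49.3 to 58.9 TPM in WT. bli-3, a blue light-induced gene, had 409, 361 and 557 TPM in isw, against 1272, 921 and 1056 TPM in acf iaf-2 and 1177 to 1542 TPM in WT. Their differences were -1.15 ± 0.14 and -1.30 ± 0.19 (limma, adjusted p = 8.26e-06 and 4.32e-05). In series 112 al-2, al-1, cry and bli-3 were each called lower in the triple mutant than in acf (edgeR, log2 difference -1.63, -0.88, -1.71 and -1.21).

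bli-4, another blue light-induced gene, had 16.9, 12.6 and 17.1 TPM in isw, against 101, 24.7 and 70.8 TPM in acf iaf-2, where replicate 2 was low. nop-1, an opsin gene, had 5.67 to 6.58 TPM in isw, against 10.1 to 18.5 TPM in acf iaf-2 and 3.05 to 3.68 TPM in WT. The 2 members higher in isw were wc-1, a photoreceptor and transcription factor gene, with 13.2, 16.8 and 12.7 TPM in isw, against 8.06, 8.41 and 7.55 TPM in acf iaf-2 and 12.6 to 15.5 TPM in WT, and phy-2, a phytochrome gene, with 4.64 to 5.47 TPM against 2.14 to 3.11 TPM. The higher count was 1 without isw replicate 2 and 0 with acf iaf-2 replicate 1 alone. That count rose to 3 under others, among them median-ratio scaling, edgeR and DESeq2, and to 4 with only the 2 groups in the fit. vvd, a list member not called by limma on all groups, was called higher with only the 2 groups (limma, 0.65, adjusted p = 0.011). edgeR and DESeq2 called it too (adjusted p = 0.0177 and 0.00479). frq, the central clock gene, had 17.1 to 18.2 TPM in isw, against 20.2 to 21.5 TPM in acf iaf-2 and 27.8 to 32.3 TPM in WT. It was not called (limma, -0.22 ± 0.11, adjusted p = 0.110).

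Conidiation genes, which mark the making of asexual spores, split, with 5 of 11 lower and 3 higher in isw (22.5% and 19.4% of all genes) and a median of -0.67. The median was -0.34 without acf iaf-2 replicate 1, -0.44 without isw replicate 2 and -0.25 over 12 members with no filter on low values. Against WT, the list's median was -0.07 for isw and 0.35 for acf iaf-2, which share the WT libraries. fl, the zinc cluster regulator of conidiation, had 18.4, 15.0 and 20.1 TPM in isw, against 34.9, 33.3 and 39.2 TPM in acf iaf-2 and 27.3 to 28.4 TPM in WT (limma, -0.97 ± 0.16, adjusted p = 0.000122). fld had 31.4 to 38.8 TPM in isw, against 56.4 to 89.7 TPM in acf iaf-2, and csp-1, a transcriptional repressor gene, had 26.3 to 31.7 TPM against 42.3 to 49.3 TPM. con-6, a conidiation-specific gene, went the other way, with 32.4, 27.6 and 31.7 TPM in isw, against 10.7, 7.14 and 10.8 TPM in acf iaf-2 and 1.05 to 2.15 TPM in WT (limma, 3.03-fold, adjusted p = 8.38e-06).

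acf iaf-2 replicate 2 stood apart at several of these genes. con-8 had 181, 182 and 231 TPM in isw, against 1322, 367 and 900 TPM in acf iaf-2 and 267 to 756 TPM in WT (limma, -1.94 ± 0.46, adjusted p = 0.00448). eas, the gene of the hydrophobin that coats conidia, had 173, 88.8 and 178 TPM in isw, against 430, 88.6 and 356 TPM in acf iaf-2, groups that overlap, without a call. Summed over the 6 conidial markers con-6, con-8, con-10, con-13, eas and fl, levels were 435, 335 and 507 TPM in isw, against 1837, 509 and 1348 TPM in acf iaf-2 and 331, 842 and 726 TPM in WT, and con-13 had at most 0.139 TPM in isw and none in acf iaf-2 or WT. The conidial sum was thus lower in isw, though acf iaf-2 replicate 2, at 509 TPM, nearly met the highest isw library, at 507 TPM. con-8 and eas made up most of that sum, while con-6 was higher in isw and eas was not called. The perithecial sums overlapped between the mutants, though Asm-1 made up most of each and per-1, the other expressed marker, was called higher in isw. The part of conidial markers in other differences was not tested. In bulk samples, fewer cells of a type and less RNA per cell cannot be told apart.

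The heat shock and oxidative stress list had 5 of 8 members lower in isw and 1 higher (22.5% and 19.4% of all genes), with a median of -0.61. Of its catalase genes, cat-1, cat-2 and cat-3 were lower, and cat-4 was not called, at 3.03 to 3.88 TPM in isw, against 4.42 to 5.69 TPM in acf iaf-2. cat-3, the catalase of growing hyphae, had 343, 473 and 351 TPM in isw, against 1241, 893 and 1252 TPM in acf iaf-2 and 640 to 723 TPM in WT (limma, -1.53 ± 0.22, adjusted p = 4.68e-05). cat-1, the conidial catalase, had 147, 143 and 185 TPM in isw, against 514, 328 and 413 TPM in acf iaf-2 and 238 to 358 TPM in WT (limma, -1.38 ± 0.30, adjusted p = 0.00193). sod-1, the copper-zinc superoxide dismutase gene, was the member higher in isw, at 832, 796 and 873 TPM against 621, 570 and 592 TPM in acf iaf-2 and 857 to 966 TPM in WT. The lower count was 2 without acf iaf-2 replicate 1 or without replicate 3 of that group, and 3 without isw replicate 1 or isw replicate 2, with a replicate block or with acf iaf-2 replicate 1 alone. cat-2, sod-2 and hsp30 lost their calls under at least 1 of these.

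Genes for cellulose use had 8 of 15 members lower in isw and 2 higher, with a median of -0.48. Of all genes, 22.5% were lower and 19.4% higher. Against WT, the list's median was -0.01 for isw and 0.36 for acf iaf-2, which share the WT libraries. cdt-1, a cellodextrin transporter gene, had 20.7, 20.0 and 22.6 TPM in isw, against 77.6, 46.8 and 71.2 TPM in acf iaf-2 and 20.6, 23.6 and 23.3 TPM in WT. Here isw overlapped WT, and acf iaf-2 lay above both (limma, isw minus acf iaf-2 -1.55 ± 0.17, adjusted p = 1.49e-06). cbh-1, a cellobiohydrolase gene, had 4.38 to 6.12 TPM in isw, against 7.37 to 11.7 TPM in acf iaf-2, and clr-1, a regulator of cellulase genes, had 18.7 to 20.4 TPM against 26.8 to 36.1 TPM. gh61-2 was higher in isw, at 59.5, 55.8 and 50.1 TPM against 26.7, 30.5 and 18.6 TPM in acf iaf-2. cdt-1, gh61-2 and gh61-4 were the calls of at least 2-fold. The lower count was 5 without isw replicate 1 or without acf iaf-2 replicate 3, and 4 with acf iaf-2 replicate 1 alone.

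The broader glycoside hydrolase list, which shares members with the last, had 29 of 75 lower and 13 higher, with a median of -0.29. Against WT, its median was 0.27 for isw and 0.38 for acf iaf-2, so neither mutant's median lay below WT. Of all genes 22.5% were lower and 19.4% higher, so the share of higher members was near that of all genes. gh35-1, of a galactosidase family, had 28.2, 21.2 and 30.8 TPM in isw, against 149, 114 and 129 TPM in acf iaf-2 and 176 to 222 TPM in WT (limma, -2.26 ± 0.14, adjusted p = 1.12e-09). gh13-3 had 6.36 to 7.67 TPM in isw, against 25.7 to 28.3 TPM in acf iaf-2 and 11.8 to 15.3 TPM in WT. The list's counts were 19 lower and 7 higher with acf iaf-2 replicate 1 alone. gh18-1, of a chitinase family, had 4.00, 4.83 and 3.34 TPM in isw, against 0.0540, 0.151 and 0.0610 TPM in acf iaf-2 and at most 0.0764 TPM in WT (limma, 2.21 ± 0.21, adjusted p = 4.57e-07). pho-3, a phosphatase gene, was the single call among 7 phosphate genes, at 44.6, 42.3 and 32.6 TPM in isw against 138, 95.1 and 125 TPM in acf iaf-2 (limma, -1.56 ± 0.20, adjusted p = 1.19e-05).

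Amino acid synthesis genes were lower in isw in 27 of 62 cases and higher in none, with a median of -0.39, where 22.5% of all genes were lower. The median was -0.27 for isw against WT and 0.18 for acf iaf-2 against WT, which share the WT libraries. Between the mutants, 18 were lower and 1 higher without acf iaf-2 replicate 2, with a median of -0.27. Without acf iaf-2 replicate 3, 37 were lower, with a median of -0.55. The higher count was also 1 with median-ratio scaling, with only the 2 groups in the fit, by edgeR and by DESeq2. thr-5 had 33.3, 29.0 and 32.3 TPM in isw, against 80.3, 105 and 94.6 TPM in acf iaf-2 and 103 to 108 TPM in WT (limma, -1.53 ± 0.12, adjusted p = 5.15e-08). arg-14, of arginine synthesis, had 26.5 to 28.8 TPM in isw, against 54.2 to 66.9 TPM in acf iaf-2 and 53.8 to 59.9 TPM in WT. The list was built from symbols and also holds cys-14, a sulfate transporter gene, with 91.1, 88.9 and 66.4 TPM in isw, against 266, 327 and 289 TPM in acf iaf-2 (limma, -1.84 ± 0.15, adjusted p = 7.77e-08).

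Respiratory complex I, which passes electrons from NADH to ubiquinone, had 13 of 29 subunit genes lower in isw and none higher (22.5% and 19.4% of all genes), with a median of -0.28 and differences of at most 0.67 in size. nuo10.6 had 235, 193 and 236 TPM in isw, against 325, 365 and 370 TPM in acf iaf-2 and 453 to 490 TPM in WT. The count depended on the libraries: it was 8 without isw replicate 2, 7 without acf iaf-2 replicate 3 and 2 with acf iaf-2 replicate 1 alone, and it was 8 with median-ratio scaling. Of 13 vacuolar ATPase genes, vma-13 was lower, and of 7 cytosolic ribosomal protein genes none was called by limma, edgeR or DESeq2.

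Chromatin genes moved little. Of 7 core and linker histone genes, 4 were higher in isw and none lower (19.4% and 22.5% of all genes), with a median of 0.36. The higher count was 5 with median-ratio scaling or DESeq2, 6 with only the 2 groups in the fit and 3 without isw replicate 1. hH3, the histone H3 gene, had 3779, 3593 and 3721 TPM in isw, against 2888, 2716 and 3018 TPM in acf iaf-2 and 2580 to 2727 TPM in WT (limma, 0.36 ± 0.09, adjusted p = 0.00489). hH4-2, of the near-identical pair of histone H4 genes, whose reads may be split between copies, had 1253 to 1355 TPM in isw, against 934 to 993 TPM in acf iaf-2. The count was 1 with acf iaf-2 replicate 1 alone.

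PRC2 and EPR-1 genes had 3 of 5 members higher in isw and none lower, with a median of 0.35, where 19.4% of all genes were higher and 22.5% lower. NCU07505, the gene of EPR-1, a reader of lysine 27 methylation, had 27.1 to 31.9 TPM in isw, against 16.0 to 19.4 TPM in acf iaf-2 and 13.4 to 19.2 TPM in WT (limma, 0.74 ± 0.20, adjusted p = 0.00688). set-7, the methyltransferase gene of PRC2, had 7.64, 7.81 and 8.66 TPM in isw, against 5.95, 5.91 and 6.41 TPM in acf iaf-2. It was not called by limma on all groups (0.35 ± 0.16, adjusted p = 0.0950). It was called higher with median-ratio scaling (limma, adjusted p = 0.0313) and with only the 2 groups in the fit (limma, adjusted p = 0.0299). edgeR (adjusted p = 0.024) and DESeq2 (adjusted p = 0.00903) called it too, and the list's higher count was 4 in each of these settings. The count was 1 without acf iaf-2 replicate 2 or without isw replicate 3, and 0 with acf iaf-2 replicate 1 alone. Of 8 heterochromatin and DNA methylation genes, 2 were higher in isw and none lower, the higher share being near the 19.4% of all genes. These were hpo, which encodes heterochromatin protein HP1, and cdp-2. They had 48.5 to 59.4 and 24.0 to 25.8 TPM in isw, against 32.4 to 41.5 and 19.1 to 20.8 TPM in acf iaf-2. The count was 0 without acf iaf-2 replicate 1, isw replicate 1, isw replicate 2 or isw replicate 3, 1 without acf iaf-2 replicate 2 or acf iaf-2 replicate 3, and 4 with median-ratio scaling. Among 10 remodeler genes other than isw and acf, 4 were higher and 1 lower (19.4% and 22.5% of all genes). One of those higher was crf10-1, with 12.6, 10.1 and 10.1 TPM in isw, against 6.04, 6.43 and 6.44 TPM in acf iaf-2.

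**Figure D5:**
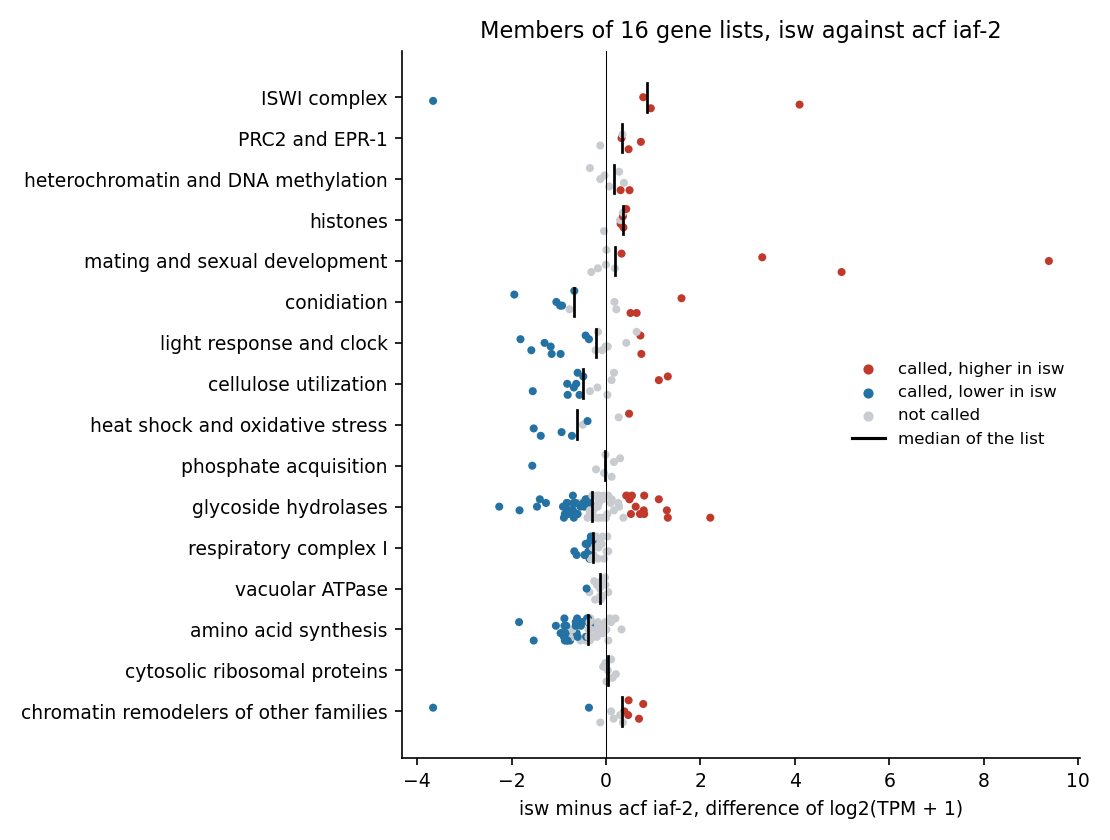
Difference of isw minus acf iaf-2 in log2(TPM + 1) for each tested member of 16 gene lists (1 point a gene), coloured by call, with a bar at the list's median. mfa-1 lies at 9.38, the medians of the other lists but the ISWI genes stay between -0.67 and 0.36, and the lists of ISWI genes and remodelers both hold isw (-3.66) and acf (0.79).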

How the data were processed

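Per the labels' protocols, RNA was made into stranded mRNA libraries. Tools named in the submitters' processing notes are FastQC, Trim Galore 0.4.4, cutadapt 1.14, HISAT2 2.1.0, SAMtools 1.9 and Subread 1.6.2 with featureCounts. A genome build was not given in the sources used here. The authors deposited TPM for the batch of 17 libraries that holds isw and acf iaf-2 (series 118), and raw counts per gene for series 111 and 112.

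TPM were tested with limma 3.58.1 (R 4.3.3, trended and robust) on log2(TPM + 1), with all 17 libraries of 6 groups in the fit. Genes needed at least 1 TPM in at least 2 libraries, and p-values were adjusted by Benjamini-Hochberg over all genes tested. Low TPM values were whole multiples of 1 read for 10086 of 10087 genes (99.99%, tolerance 0.001 read), so reads were recovered and tested with edgeR 4.0.16 and DESeq2 1.42.0 as alternatives. Recovered totals ran from 11768523 to 22036816 reads. For series 112, the deposited counts went into edgeR's quasi-likelihood fit. The fits were tested on simulated data.

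Reference gene positions matched 10363 of 10397 genes. Named genes were the deleted genes, the 12 furthest above and below among genes past 2-fold with at least 5 TPM in the higher group and no overlap of libraries, genes on opposite sides of WT, the longest runs, the leading 4 of each list and the genes most changed from WT in isw but alike in both mutants. The members and lists were chosen with earlier results of these data known. The other samples of the series (53 of 94) were not analysed here.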

Additional observations from a re-analysis of the deposited data

How the results depend on the processing

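With acf iaf-2 replicate 1 alone for its group, whose spread is then assumed to be that of the other groups, 2337 genes were called between isw and acf iaf-2, 1069 higher and 1268 lower, and 1367 between acf iaf-2 and WT, 1185 higher and 182 lower. Genes lower in acf iaf-2 than in WT numbered 814 with median-ratio scaling, 865 with edgeR and 939 with DESeq2. Chromosome-end shares of higher calls were 3.27% with 20 genes at each end and 8.80% with 100, and of lower calls 13.1% with 20. WT lay below both mutants for 63.5% of genes called higher at any fold, against 83.0% of those past 2-fold. The cause of these shifts was not tested.

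Leaving out 1 library at a time gave 3152 to 3506 called genes for isw against acf iaf-2, with 1412 to 1633 higher and 1740 to 1889 lower, and 663 to 683 higher and 455 to 536 lower at 2-fold. For isw against WT it gave 3911 to 4266 called, 2275 to 2685 higher and 1483 to 1688 lower, and 1292 to 1363 and 422 to 495 at 2-fold. For acf iaf-2 against WT it gave 1822 to 2094 called, 1455 to 1688 higher and 322 to 406 lower, and 837 to 919 and 83 to 96 at 2-fold. For the triple mutant against acf it gave 3603 to 3938 called, 1870 to 2007 higher and 1698 to 1931 lower, and 933 to 978 and 448 to 543 at 2-fold.

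Same-numbered isw and acf iaf-2 libraries had correlations of their deviations of -0.056, 0.112 and 0.071, so the numbers were not taken as pairs. With the replicate block, 3740 genes were called between isw and acf iaf-2, 4362 between isw and WT, 2184 between acf iaf-2 and WT and 4100 between the triple mutant and acf. Of 355 named genes and list members tested, 203 were called, 133 of them under every alternative. Of the 70 that lost the call somewhere, 65 lost it with acf iaf-2 replicate 1 alone, 46 others gained one, and none that was called changed sign.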

Other observations

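The 12 genes furthest above acf iaf-2 in isw can be placed in the other mutants of the batch, given here as values with no test. In the triple mutant, NCU10502 had 3561 to 4033 TPM, mfa-1 8434 to 18368 TPM and NCU04869 1446 to 1569 TPM over 3 libraries. In acf iaf-1 the same genes had 29.6 to 34.2, 20.4 to 25.0 and 1.31 to 2.82 TPM over 3 libraries. In iaf-1 iaf-2, with 2 libraries, they had 0.334 to 2.87, 27.9 to 43.1 and 0 TPM.

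NCU10644, next to NCU10502 on chromosome IV, had 1019 to 1705 TPM in the triple mutant, 76.9 to 107 TPM in acf iaf-1 and 0 to 0.426 TPM in iaf-1 iaf-2. NCU16929 had 1414 to 1889 TPM in the triple mutant, 30.8 to 41.5 TPM in acf iaf-1 and 2.62 to 6.50 TPM in iaf-1 iaf-2. NCU00370 had 71.4 to 107 TPM in the triple mutant, 4.45 to 5.10 TPM in acf iaf-1 and 4.40 to 6.98 TPM in iaf-1 iaf-2.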
